A study of Rattus norvegicus with 36 samples.

Results

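The ADAM and ADAMTS families of metalloproteases were examined in rat lungs after instillation of DQ-12, a quartz dust used as a reference for crystalline silica. Every non-control probe whose gene name on the array was Adam, Adamts or Adamtsl followed by a number (for Adam, also with 1 further letter) was taken, which gave 76 of 45598 probes and 48 of 25597 gene names. The rule used names and not measured signals, although earlier results of these data were known when it was chosen.

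Female Sprague Dawley rats, 13 weeks old at the start, received either 10 mg of DQ-12 in sterile saline through the trachea (DQ-12) or the saline alone (vehicle). The stored dust had been ground anew before use. The accessory lobe of the lung was taken at D1, D30, or D180, and the RNA of each rat was labeled with Cy3 and hybridized to its own Agilent array. There were 6 rats in each of the 6 groups, hence 36 arrays. Signals are given as normalized log2 intensities of a probe, and are comparable between rats but not between probes. Surfactant and other alveolar type 2 markers, which define lung tissue, were bright in all groups, with a mean log2 signal over 7 genes of 15.87 to 16.53.

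ADAMs are membrane proteins that pair a metalloprotease domain with a disintegrin domain, and the active ones cut the outer part off other membrane proteins (shedding), among them TNF, growth factors of the EGF family, and adhesion molecules. ADAMTS proteases are secreted and carry thrombospondin repeats that hold them in the matrix, where they cut proteoglycans, procollagens, or von Willebrand factor. ADAMTS-like proteins share these repeats but have no protease domain, and several bind fibrillin microfibrils, which store TGF-β in the lung.

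Detection differed by role. With the brightest probe of each gene, 21 of 48 genes were well above background (the call of the scanner software for a spot) on all 36 arrays, 10 on 30 to 35 arrays, 13 on 1 to 29 arrays, and 4 on none. Of the 8 ADAMs with an active site known outside the germline, 7 were detected on all 36 arrays, and Adam28, a protease of lymphocytes and epithelium, on 3 arrays. All 4 ADAMTS-like genes, both proteases that cut cartilage oligomeric matrix protein (COMP; Adamts7 and Adamts12), and Adamts13, which cuts von Willebrand factor, were detected on at least 30 arrays. Of the 14 ADAMs known mainly from testis and epididymis, Adam1a was detected on all 36 arrays, Adam4 on 35, Adam7 on 30, 8 others on 1 to 17 arrays, and Adam2, Adam18, and Adam32 on none with any probe. Adam7 varied between groups of the same treatment, with 1 of 6 vehicle rats well above background at D30 and all 6 at D1 and D180. Adamts20, the remaining gene at 0 with its brightest probe, was detected on 2 arrays with another probe. Adamts16 (4 arrays), Adamts19 (10 arrays), and the procollagen protease Adamts3 (18 arrays) were also close to the limit.

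**Figure D1:**
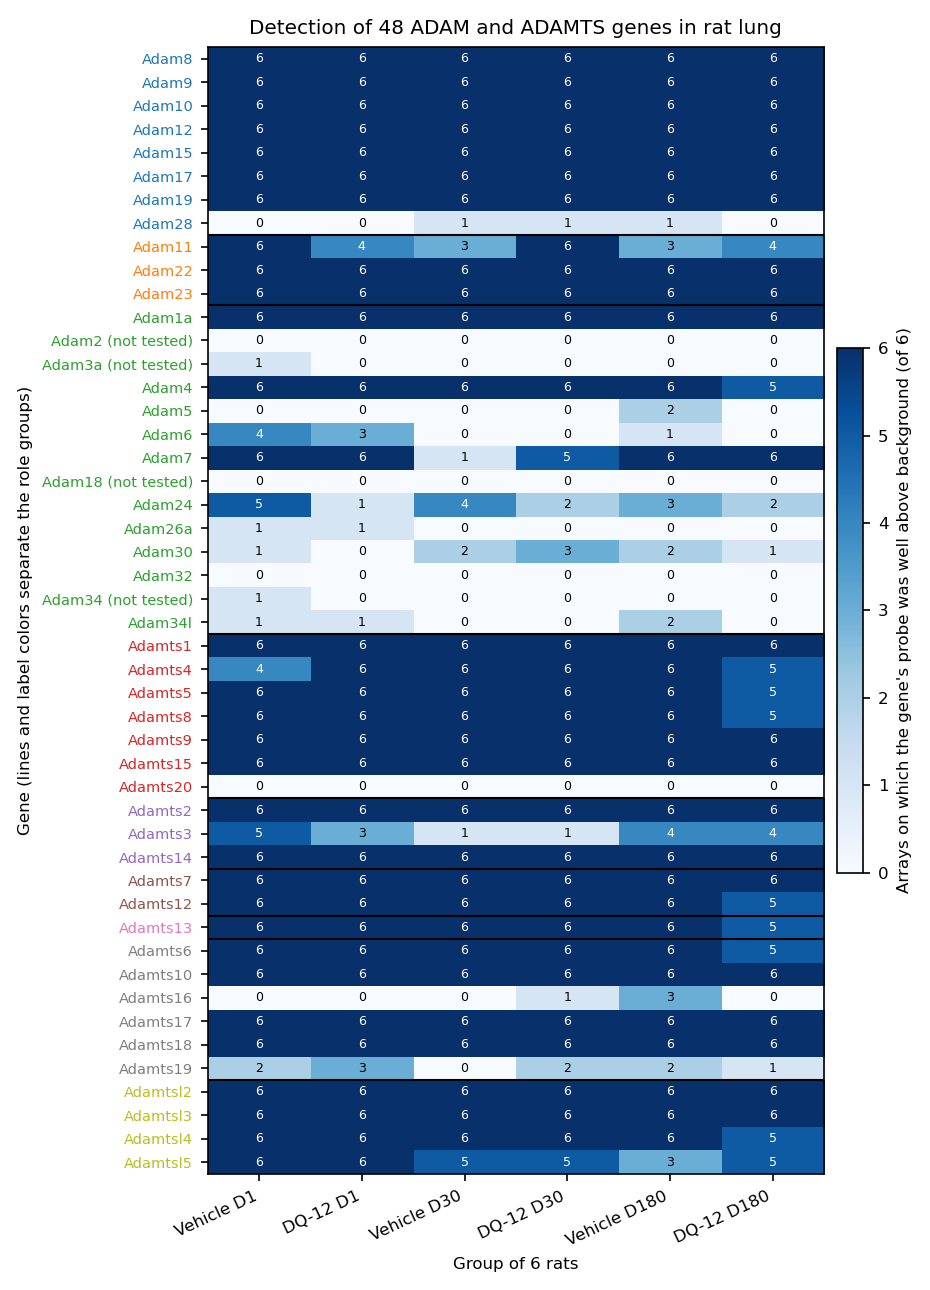
Number of arrays, of 6 in each group (columns), on which the probe used for each of 48 genes (rows, ordered by role) was well above background. Of the 8 ADAMs with an active site, 7 were detected on all 6 arrays of every group, while the ADAMs of testis and epididymis other than Adam1a, Adam4, and Adam7 were detected in few rats.

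The arrays differed in quality by a moderate amount. Between 51.4 and 75.5% of all probes were well above background, and the lowest was DQ-12 D180 replicate 5, with 22 of 44 tested members detected against 33 to 34 in the other rats of its group. All 7 genes detected on 35 arrays (among them Adamts5, Adamts8, and Adamts13) were missed on that array. At D1, the 6 DQ-12 arrays shared their scan date with 1 vehicle array, and the other 5 vehicle arrays were scanned apart from them. Each of the 2 scan dates at D30 held rats of both groups, but unevenly. The first held 1 DQ-12 and 4 vehicle rats, and the second 5 DQ-12 and 2 vehicle rats. At D180, 4 rats of each group shared a scan date with rats of the other group.

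Exposed and vehicle rats were compared at each time point to learn whether these proteases responded to silica early, at an intermediate time, or late. A gene was called if its fold change (FC) reached 2 and its adjusted p-value lay under 0.05 (limma, Benjamini–Hochberg over all 23940 genes tested), and 44 of the 48 genes could be tested, since Adam2, Adam3a, Adam18, and Adam34 did not pass the filter on low signals. At D1, 1 of 44 genes was called (Adamts4, higher), against 3.07% of all genes (2.02% higher and 1.05% lower). At D30, 1 of 44 was called (Adamtsl2, lower), against 1.05% of all genes (0.915% higher and 0.138% lower). At D180, 0 of 44 were called by limma, against 3.63% of all genes (2.86% higher and 0.773% lower). Members with an unadjusted p under 0.05 (limma) numbered 11 at D1, 8 at D30, and 10 at D180. The share of all genes under that limit was not computed, so these counts are not read as a response.

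Without a threshold on FC, 5 members passed the adjusted p at D1, 4 higher and 1 lower, or 11.4% against 16.2% of all genes (7.58% higher and 8.62% lower). At D30, 1 member passed, or 2.27% against 3.98% of all genes (2.74% higher and 1.24% lower). At D180, 2 members passed, 1 higher and 1 lower, or 4.55% against 16.8% of all genes (7.82% higher and 9% lower). By this measure the share of the families was below that of the array at each time point, but it rests on few genes. Leaving out 1 rat gave 2 to 7 members at D1, 0 to 4 at D30, and 1 to 5 at D180. With scan date or slide as a fixed block, 0 of the 5 members at D1 still passed (limma), so that for D1 the treatment and the scan date can be told apart only in part. The vehicle and DQ-12 groups did not overlap for 0 members at D1, 1 at D30 (Adamtsl2), and 1 at D180 (Adamts17), whereas this was so for 11.2, 2.36, and 7.31% of all genes. The median log2FC of the members was 0.02 at D1, −0.10 at D30, and −0.18 at D180, beside −0.01, −0.02, and −0.03 over all genes. At D180, 68.2% of the members and 53.8% of all genes had a negative log2FC. The median of the members at D180 depended on the processing. It was −0.02 with slide as a fixed block, −0.07 with normexp background correction, −0.09 with the median over probes, and −0.20 with 75th percentile scaling.

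**Figure D2:**
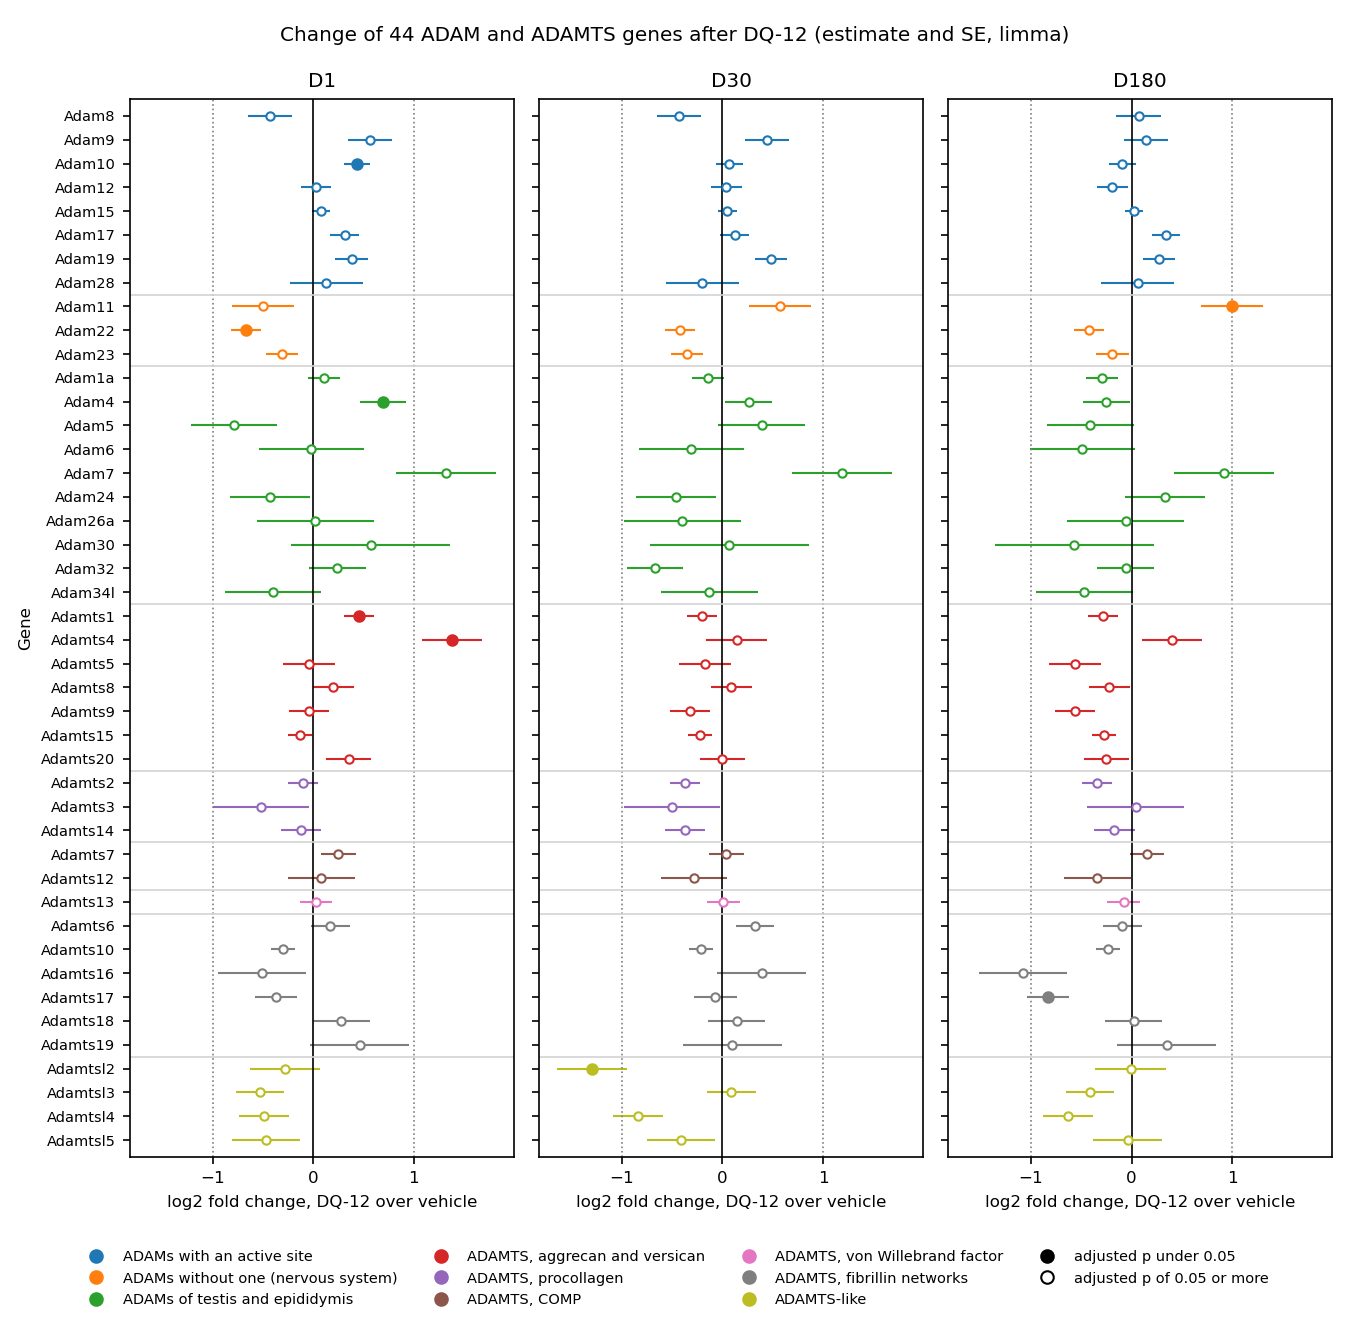
Estimated log2FC (DQ-12 over vehicle, horizontal axis) with its SE for each of 44 genes (vertical axis) at D1, D30, and D180. Filled points passed an adjusted p of 0.05, dotted lines mark a 2-fold change, and colors mark roles. Filled points number 5 at D1, 1 at D30, and 2 at D180.

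Among the 7 proteases that cut the proteoglycans aggrecan and versican, 2 rose at D1 (Adamts4, and Adamts1 with 1 of its 2 probes), and none passed the test at D30 or D180. Adamts4, also called aggrecanase 1 and known to be induced by inflammatory cytokines, had log2 signals of 3.61 to 4.84 (median 4.54) in the vehicle group at D1. In the exposed group, it had 4.60 to 6.47 (median 5.69). Of the exposed rats, 5 lay above all vehicle rats, and the lowest one lay within the vehicle range. The log2FC was 1.38 ± 0.30 (SE, n = 6 per group), a 2.59-fold rise (limma, adjusted p = 0.00153, exact permutation p = 0.00866, two-sided, over 924 splits of the 12 rats). In this bulk tissue, more cells of a type that expresses a gene and more RNA per cell cannot be told apart.

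The vehicle group was low for Adamts4 at D1. All 6 vehicle rats at D1 were below every vehicle rat at D30 (5.68 to 6.12) and at D180 (5.15 to 5.98), and 4 of 6 were well above background. The vehicle rat scanned together with the DQ-12 rats had 4.76, within the 3.61 to 4.84 of the other 5 vehicle rats, and the difference within that scan date was 0.94 on the log2 scale (6 rats against 1). With scan date as a fixed block, the estimate was 0.94 and no longer passed the test (limma, adjusted p = 0.536), and without background correction, it was 0.62 (limma, adjusted p = 0.0181), under 2-fold. Adamts4 changed by 0.14 ± 0.30 at D30 and by 0.40 ± 0.30 at D180, and neither passed the test (limma, adjusted p = 0.922 and 0.437).

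Adamts4 was measured by 1 probe, and its last 30 bases are shown because the early change of the family depends on it.

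Adamts4: atacctcccttagaaatctgttgtaaggat

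Adamts1, an early response protease that also inhibits angiogenesis, had signals of 11.08 to 11.67 (median 11.43) without and 11.49 to 12.22 (median 11.91) with DQ-12 at D1. Of the exposed rats, 4 lay above all vehicle rats, and the other 2 within the vehicle range. The rise was 0.45 ± 0.15 on the log2 scale, or 1.37-fold (limma, adjusted p = 0.0387), and 0.19 within the shared scan date. Leaving out 1 of 7 rats (vehicle replicates 1, 4, and 5 and DQ-12 replicates 1, 2, 3, and 5 at D1) gave adjusted p-values of up to 0.117. A second probe of Adamts1, also well above background on all 36 arrays, did not show it. That probe ranged from 5.97 to 7.12 in vehicle rats and from 4.46 to 6.51 in DQ-12 rats. Its log2FC of −0.80 ± 0.48 did not pass the test (limma over all probes, adjusted p = 0.306). The change of the difference between both probes was 1.25 on the log2 scale (exact permutation p = 0.00216, the smallest possible here, adjusted p = 0.0194 over 18 comparisons of probes). The sign of the estimate for Adamts1 at D1 thus depended on the probe.

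Because Adamts1 and Adamts4 were the proteoglycan proteases that passed the test at D1 with the probe used, windows of 300 bases around their transcription starts, most of it upstream (RefSeq, build GRCr8), are given. They were searched on both strands for a TATA box, spelled TATAAA, and for a GC box, spelled GGGCGG. The search also covered the CCAAT box, which spells itself. The last motif was the AP-1 site, spelled TGACTCA with C in the middle, or with G in that place, which is the same site read on the other strand. Matches are in capitals. Of 27457 rat promoters of this length, 14.3, 34.9, 37.7, and 4.53% held these motifs, and of the 31 members with a promoter in the table, 22.6, 54.8, 35.5, and 6.45%. The Adamts1 window at chr11:38427335-38427634, on the minus strand, held the first 3 motifs, and the Adamts4 window at chr13:86202761-86203060, on the plus strand, held none of the 4, which says only that these letters are not in that window.

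Adamts1: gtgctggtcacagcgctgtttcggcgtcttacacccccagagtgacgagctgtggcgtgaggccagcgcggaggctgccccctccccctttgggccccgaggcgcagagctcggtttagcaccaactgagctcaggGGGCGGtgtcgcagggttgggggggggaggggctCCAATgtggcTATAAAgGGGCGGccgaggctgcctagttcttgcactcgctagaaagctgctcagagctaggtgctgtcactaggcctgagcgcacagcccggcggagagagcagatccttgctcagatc

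Adamts4: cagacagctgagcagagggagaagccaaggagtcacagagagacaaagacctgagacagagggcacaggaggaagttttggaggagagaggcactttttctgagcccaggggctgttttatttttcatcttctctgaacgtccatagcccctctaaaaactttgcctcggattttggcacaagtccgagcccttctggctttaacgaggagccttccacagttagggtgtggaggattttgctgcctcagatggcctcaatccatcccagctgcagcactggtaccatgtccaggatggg

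The other proteoglycan proteases stayed short of the threshold. Adamts5, aggrecanase 2, changed by −0.04 ± 0.26 at D1, −0.17 ± 0.26 at D30, and −0.56 ± 0.26 at D180 (limma, adjusted p = 0.952, 0.86, and 0.156). At D180, 5 exposed rats had Adamts5 signals of 5.33 to 6.10 against 5.87 to 6.46 in vehicle rats, and the lowest value, 4.08, belonged to DQ-12 replicate 5, the array with the fewest detected probes. Adamts9, a protease of versican in vessels and development, came closest at D180, with 9.27 to 10.16 in vehicle rats, 8.6 to 9.87 in DQ-12 rats, and a log2FC of −0.56 ± 0.20 (limma, adjusted p = 0.0502). Adamts8, Adamts15, and Adamts20 had log2FC between −0.27 and 0.35 over the time points.

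Of the 8 ADAMs with an active site, 1 (Adam10) rose at D1, and none passed the test at D30 or D180. Adam10, which sheds Notch, cadherins, and chemokines, had signals of 8.06 to 8.39 (median 8.18) in controls and 8.08 to 8.92 (median 8.69) in exposed rats at D1. In total, 5 exposed rats lay above all vehicle rats, and DQ-12 replicate 1 (8.08) lay near the lowest of them. The rise was 0.43 ± 0.13 on the log2 scale, or 1.34-fold (limma, adjusted p = 0.0195, or 0.0639 without DQ-12 replicate 2), and the difference within the shared scan date was 0.25. Adam10 changed by 0.07 ± 0.13 at D30 and −0.09 ± 0.13 at D180 (limma, adjusted p = 0.888 and 0.711).

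Adam17, the TNF-converting enzyme, changed by 0.31 ± 0.14 at D1, 0.12 ± 0.14 at D30, and 0.34 ± 0.14 at D180, without passing the test (limma, adjusted p = 0.129, 0.776, and 0.088). Its signals were 8.91 to 9.26 (median 8.97) in controls and 9.23 to 9.48 (median 9.28) in exposed rats at D1. The 95% confidence intervals of these changes, 0.03 to 0.58, −0.15 to 0.40, and 0.06 to 0.62, all stayed under a 2-fold change. Adam9 changed by 0.56 ± 0.22 at D1, and Adam19 by 0.48 ± 0.16 at D30 (limma, adjusted p = 0.0853 and 0.0768). Adam8, a protease of leukocytes, had a negative log2FC at D1 (−0.43 ± 0.22) and at D30 (−0.43 ± 0.22) that did not pass the test (limma, adjusted p = 0.193 and 0.336). Of 7 neutrophil markers, 1 (Csf3r) was higher by adjusted p at D1. The mean log2 signal over the 7 was 7.48 to 7.86 in vehicle rats and 8.10 to 8.58 in DQ-12 rats at that time. Adam12 and Adam15, known from muscle and vessels, had log2FC between −0.19 and 0.08 over the time points.

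The 3 ADAMs without an active site are known as ligands and receptors at synapses. By the test, 1 of them fell at D1 (Adam22), none passed at D30, and 1 rose at D180 (Adam11). Adam22, a receptor of the LGI proteins, had signals of 5.52 to 6.24 (median 5.88) in controls and 4.88 to 5.52 (median 5.19) in exposed rats at D1. Among the exposed, 5 rats lay below all vehicle rats, and the groups met at 5.52. The fall was −0.67 ± 0.15 on the log2 scale, or 1.6-fold (limma, adjusted p = 0.00214, exact permutation p = 0.00433). Within the shared scan date, it was −0.72 (6 rats against 1). With scan date or slide as a fixed block, the fall no longer passed the test. Over 14 alternatives to the processing, the estimate ranged from −0.86 to −0.27, and 3 of them did not pass (limma, adjusted p up to 0.548). Adam22 had a log2FC of −0.42 ± 0.15 at D30 and at D180 (limma, adjusted p = 0.132 and 0.055). Both other probes of Adam22 had changes at D1 (−0.31 ± 0.34 and −0.30 ± 0.28) that did not pass the test (limma over all probes, adjusted p = 0.629 and 0.549), and the latter was well above background on 0 arrays. At D30, these probes had log2FC of 0.13 ± 0.34 and −0.72 ± 0.28. At D180, they had 0.42 ± 0.34 and 0.28 ± 0.28, opposite in sign to the probe used. None of these passed the test (limma over all probes, adjusted p = 0.206 to 0.957). The change of the difference from the probe used was −0.84 and −0.70 at D180 (exact permutation, adjusted p = 0.123 and 0.039 over 18 comparisons). Adam23 had log2FC of −0.31, −0.35, and −0.19, without passing the test.

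Adam11 was the member that rose at D180. Its signals were 2.66 to 4.95 (median 4.72) in controls and 4.36 to 6.00 (median 5.19) in exposed rats. Again, 5 exposed rats lay above all vehicle rats, and the width of the vehicle group came from a pair of low values. At D180, the probe was well above background in 3 of 6 vehicle rats and 4 of 6 DQ-12 rats. Among the 5 exposed rats, replicate 5 (5.06) was not, nor were the low vehicle values (2.66 and 3.57). The rise was 1.00 ± 0.31 on the log2 scale (limma, adjusted p = 0.02, exact permutation p = 0.0476), just below the 2-fold threshold before rounding. Without background correction, the estimate was 0.34 (limma, adjusted p = 0.0428), and leaving out 1 of 4 rats (vehicle replicates 1 and 3 and DQ-12 replicates 1 and 2 at D180) gave adjusted p-values of up to 0.0797. At D1, the same probe had 4.88 to 5.55 in vehicle rats and 4.14 to 5.08 in DQ-12 rats, a log2FC of −0.50 ± 0.31 (limma, adjusted p = 0.294).

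The change of Adam11 between D1 and D180 passed the test of the difference itself, as did that of Adamts1, and no other member did. For Adam11, the difference between the log2FC at D180 and at D1 was 1.49 ± 0.43 (limma interaction, adjusted p = 0.0393). For Adamts1, it was −0.73 ± 0.22 (limma interaction, adjusted p = 0.0447), from 0.45 at D1 to −0.28 at D180. This made 2 of 44 members, or 4.55%, the share also seen over all genes (4.55%). Between D1 and D30, 0 members passed the limma interaction test (2.18% of all genes, 4 members with an unadjusted p under 0.05), and between D30 and D180 also 0 (0.246% of all genes, 3 members with an unadjusted p under 0.05). Leaving out 1 rat brought the adjusted p of the difference above 0.05 for Adam11 in 13 of 36 cases (limma, up to 0.0784) and for Adamts1 in 19 of 36 (limma, up to 0.0839). Both differences between D1 and D180 were also lost with scan date as a fixed block (limma, adjusted p = 0.0826 for Adam11 and 0.669 for Adamts1).

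A second probe of Adam11 went against the first at D1. It had 2.51 to 4.78 (median 3.51) in controls and 4.05 to 5.15 (median 4.75) in exposed rats, a log2FC of 1.1 ± 0.43, whereas the first had −0.50. The change of the difference between both probes was −1.60 on the log2 scale (exact permutation p = 0.00216, adjusted p = 0.0194 over 18 comparisons). At D180, the second probe had a log2FC of 0.34 ± 0.43, and the probes did not differ beyond their spread (exact permutation p = 0.314, adjusted p = 0.565). The first probe was well above background on 26 arrays and the second on 15. At D1, the second was well above background in 2 vehicle rats and 5 DQ-12 rats, so its log2FC and the disagreement of the probes rest on a vehicle group mostly near background. Both are shown to let their targets be told apart, with the last 30 bases of the first and the whole of the second.

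Adam11, first probe: ctgcagcaccttggagcctacaacccattg

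Adam11, second probe: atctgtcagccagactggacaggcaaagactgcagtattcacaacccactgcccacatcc

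The 6 ADAMTS proteases grouped here are tied to fibrillin and fibronectin networks, and 1 of them, Adamts17, fell at D180. Adamts17, whose loss causes a short stature and lens disorder, had signals of 8.39 to 8.83 (median 8.69) in controls and 7.46 to 8.02 (median 7.84) in exposed rats. All 6 exposed rats lay below all vehicle rats. The fall was −0.83 ± 0.21 on the log2 scale, or 1.77-fold (limma, adjusted p = 0.00425, exact permutation p = 0.00216, the smallest possible here). Within both scan dates that held both groups at D180, the differences were −0.83 (3 rats against 3) and −0.96 (1 against 1). The change was −0.37 ± 0.21 at D1 and −0.07 ± 0.21 at D30 (limma, adjusted p = 0.246 and 0.951).

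The fall of Adamts17 was seen with 1 of its 2 probes, although both were well above background on all 36 arrays. At D180, the second probe had 8.51 to 9.42 (median 8.96) in controls and 8.81 to 9.23 (median 8.92) in exposed rats, a log2FC of 0.02 ± 0.25. The change of the difference between both probes was −0.85 on the log2 scale (exact permutation p = 0.00649, adjusted p = 0.0389 over 18 comparisons). The first probe was also lower in vehicle rats at D180 (8.39 to 8.83) than in vehicle rats at D1 (9.18 to 9.86) and D30 (9.20 to 10.07), with no overlap, whereas the second overlapped among the 3 vehicle groups (8.15 to 9.62, 7.91 to 9.02, and 8.51 to 9.42). A change of the gene as a whole therefore cannot be read from the first probe alone.

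The end of the first probe holds the hexamer of the poly(A) signal (AATAAA, in capitals), which was found in 9.04% of all 45598 probes as printed, in 12.2% on either strand, and in 5 of the 76 probes of the families as printed. The second probe is given whole. Both sequences are shown because the result for this gene depends on the choice between them.

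Adamts17, first probe: ttggacatgtgtAATAAAatgtttttccat

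Adamts17, second probe: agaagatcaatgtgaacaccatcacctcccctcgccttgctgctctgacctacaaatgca

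The other members of this group (Adamts6, Adamts10, Adamts16, Adamts18, and Adamts19) did not pass the test at any time point. Adamts10, a partner of fibrillin-1, had log2FC of −0.30 ± 0.12, −0.21 ± 0.12, and −0.23 ± 0.12 (limma, adjusted p = 0.0908, 0.414, and 0.227). Adamts16 had a log2FC of −1.08 ± 0.44 at D180 (limma, adjusted p = 0.0911), but its probe was well above background in 3 vehicle rats and 0 DQ-12 rats at that time.

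Of the 4 ADAMTS-like genes, Adamtsl2 fell at D30, and none passed the test at D1 or D180. Adamtsl2 encodes a glycoprotein that binds fibrillin and the latent form of TGF-β, and its loss causes geleophysic dysplasia, a disease with airway and lung involvement. Its signals at D30 were 7.32 to 9.26 (median 8.06) in controls and 6.46 to 7.28 (median 6.77) in exposed rats. All 6 exposed rats lay below all vehicle rats, although the highest exposed rat (7.28) was close to the lowest vehicle rat (7.32). The fall was −1.30 ± 0.35 on the log2 scale, or 2.47-fold (limma, adjusted p = 0.03, exact permutation p = 0.00216, the smallest possible here).

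A second probe of Adamtsl2 pointed the same way at D30, with 7.59 to 8.75 (median 7.81) in controls and 6.90 to 7.60 (median 7.21) in exposed rats. These groups met at 7.59 and 7.60, and the log2FC was −0.77 ± 0.24 (limma over all probes, adjusted p = 0.0777). Both probes are printed whole.

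Adamtsl2, first probe: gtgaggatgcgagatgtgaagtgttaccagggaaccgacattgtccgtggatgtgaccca

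Adamtsl2, second probe: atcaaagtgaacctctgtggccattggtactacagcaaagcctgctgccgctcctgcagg

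The vehicle group was wide (7.32 to 9.26). Within the 2 scan dates at D30, Adamtsl2 differed by −1.11 (1 DQ-12 rat against 4 vehicle rats) and −0.91 (5 against 2). With scan date as a fixed block, the estimate was −0.98 (limma, adjusted p = 0.141), and leaving out 1 of 7 rats (vehicle replicates 2, 5, and 6 and DQ-12 replicates 1, 2, 3, and 4 at D30) gave adjusted p-values of up to 0.106. At D1 and D180, the log2FC was −0.28 ± 0.35 and −0.01 ± 0.35 (limma, adjusted p = 0.652 and 0.993). The value at D180 includes DQ-12 replicate 5, the array with the fewest detected probes, at 8.97 (nearest rat of its group 7.38). The second probe had −0.08 ± 0.24 at D1 and −0.48 ± 0.24 at D180 (limma over all probes, adjusted p = 0.876 and 0.207). In the same comparison, 4 of 7 red blood cell and 2 of 5 mesothelial markers were lower by adjusted p. So were 1 of 6 alveolar type 1, 1 of 6 ciliated, 1 of 6 smooth muscle, 1 of 7 endothelial, and 1 of 7 neutrophil markers. Higher were 3 of 7 alveolar type 2, 3 of 8 macrophage, 2 of 7 neutrophil, and 1 of 7 B and plasma cell markers. Over all genes, 1.24% were lower and 2.74% higher. The part of these shifts in the result was not tested.

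Adamtsl4, a fibrillin-1 partner known from lens dislocation, was next at D30, with 5.68 to 7.12 in vehicle rats, 4.97 to 6.18 in DQ-12 rats, and a log2FC of −0.84 ± 0.25 (limma, adjusted p = 0.0526). Adamtsl3 and Adamtsl5 had log2FC between −0.53 and 0.09 over the time points. A second, dim probe of Adamtsl5 had a log2FC of 1.14 ± 0.33 at D1 (limma over all probes, adjusted p = 0.018), with signals of 2.07 to 2.49 in vehicle rats and 2.18 to 3.97 in DQ-12 rats, but was well above background on 2 of 36 arrays.

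**Figure D3:**
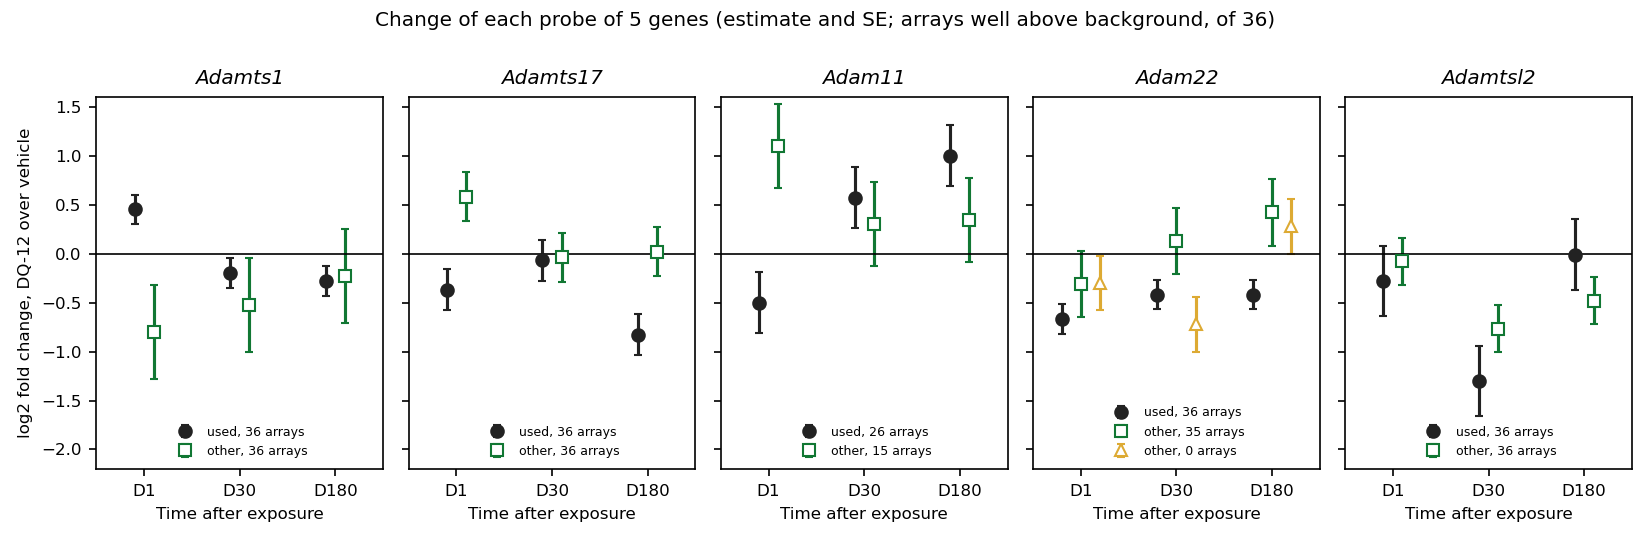
Estimated log2FC (DQ-12 over vehicle) with its SE for each kept probe of 5 genes at 3 time points; filled circles mark the probe used for the gene, and the legends give the arrays on which each probe was well above background. The probes of Adamts1 and Adam11 lie on opposite sides of 0 at D1, those of Adamts17 differ at D180, and those of Adamtsl2 share a negative sign at D30.

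The procollagen proteases Adamts2, Adamts3, and Adamts14, which remove the N-propeptide before fibrils form, did not pass the test at any time point. Adamts2 changed by −0.10 ± 0.15, −0.37 ± 0.15, and −0.34 ± 0.15 (limma, adjusted p = 0.736, 0.201, and 0.141), and Adamts14 by −0.12 ± 0.20, −0.37 ± 0.20, and −0.17 ± 0.20 (limma, adjusted p = 0.756, 0.385, and 0.638). Adamts7 and Adamts12, which cut COMP, had log2FC between −0.34 and 0.25. Adamts13, with 5.15 to 5.80 in controls and 5.00 to 5.77 in exposed rats at D1, changed by 0.03 ± 0.16, 0.01 ± 0.16, and −0.08 ± 0.16 (limma, adjusted p = 0.936, 0.994, and 0.82), with 95% confidence intervals that reached from −0.41 to 0.36 at most.

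Of the ADAMs known mainly from testis and epididymis, Adam4 passed the test at D1. It had signals of 4.43 to 6.18 (median 5.93) in controls and 6.14 to 6.57 (median 6.34) in exposed rats, a rise of 0.69 ± 0.23 on the log2 scale, or 1.61-fold (limma, adjusted p = 0.0402). Of the exposed rats, 4 lay above all vehicle rats, and the estimate fell to 0.44 without the lowest vehicle rat, replicate 2 (limma, adjusted p = 0.151). Within the shared scan date, the difference was 0.17. Adam7, a protein of the epididymis, had a large but variable log2FC of 1.32 ± 0.50 at D1, 1.19 ± 0.50 at D30, and 0.92 ± 0.50 at D180 (limma, adjusted p = 0.0666, 0.208, and 0.235). Its signals at D1 spanned 5.20 to 7.37 in vehicle rats and 5.94 to 8.48 in DQ-12 rats, and 4 exposed rats lay above all vehicle rats. At D30, this was again so for 4 exposed rats, and 1 of 6 vehicle rats was well above background.

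**Figure D4:**
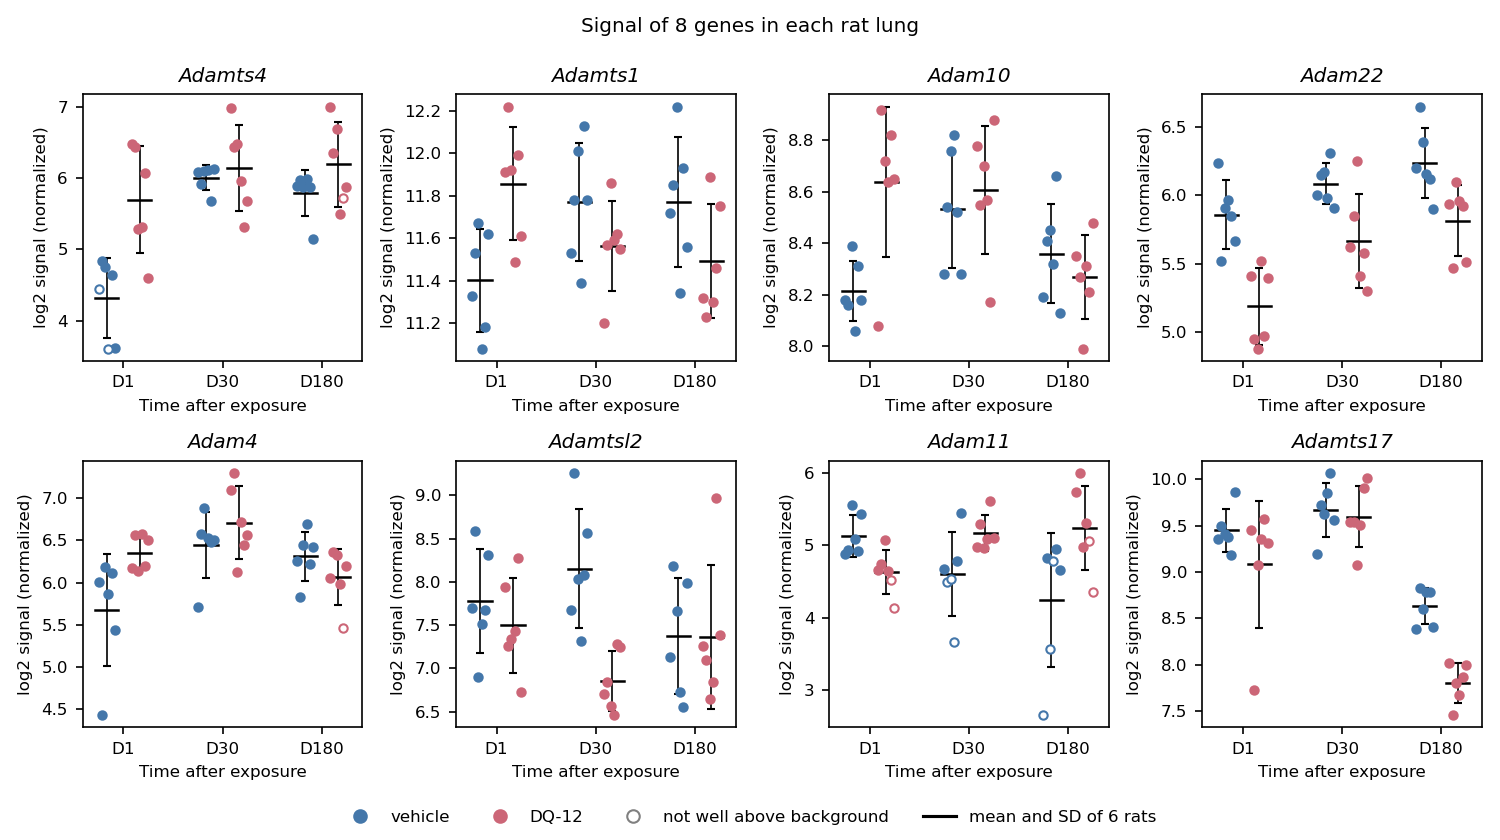
Normalized log2 signal (vertical axis, a separate scale for each gene) of the 8 genes that passed an adjusted p of 0.05 at a time point, for each of 36 rats by time (horizontal axis). Lines give the mean and SD of 6 rats, and open points were not well above background. The low vehicle rats of Adamts4 at D1, the separated groups of Adamtsl2 at D30 and Adamts17 at D180, and the pair of low vehicle rats of Adam11 at D180 can be seen.

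Inhibitors, activators, and substrates of these proteases were followed in 4 lists of genes. Of 6 inhibitors of metalloproteases, Timp1 was called at D1 with a log2FC of 1.5 ± 0.18 (limma, adjusted p = 3.86e-07), and Timp3, the main inhibitor of ADAM17 and of the aggrecanases, fell by 0.93 on the log2 scale without reaching 2-fold (adjusted p = 1.57e-05). At D180, Timp1 rose by 0.57 ± 0.18, and Timp3 and the membrane inhibitor Reck had a log2FC of −0.69 each (limma, adjusted p = 0.0262, 0.000554, and 2.75e-05). No inhibitor passed the adjusted p at D30 (limma, 0 of 6), when 3.98% of all genes did. The median log2FC of the 6 inhibitors was −0.10 at D1, −0.14 at D30, and −0.30 at D180.

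None of 13 genes for the maturation and transport of ADAM10 and ADAM17 (iRhoms, proprotein convertases, and tetraspanins) was called. By adjusted p, 2 fell at D1, 1 fell at D30, and 5 fell and 1 rose at D180. Over all genes, 8.62, 1.24, and 9% fell at these time points, and 7.82% rose at D180. Those that fell at D180 were Pcsk5, Pcsk6, Tspan5, Tspan15, and Tspan17, and the convertase Pcsk6 was the only one that fell at all 3 time points, with log2FC of −0.38, −0.53, and −0.59. Rhbdf2 (iRhom2), which escorts ADAM17 to the surface of leukocytes, rose at D180 by 0.65 ± 0.23 (limma, adjusted p = 0.0484).

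Among membrane proteins known to be shed by ADAMs, 28 of 30 listed were tested. There were 3 calls at D1, another 3 at D30 and 5 at D180, all of them higher. Over all genes, 3.07, 1.05, and 3.63% were called in either direction. Il1r2, the decoy receptor of interleukin-1, had log2FC of 2.98, 2.15, and 2.32 (SE 0.24). Trem2, a receptor of macrophages, rose by 3.17 at D30 and 3.58 at D180 (SE 0.21), and Tnf by 1.34 and 1.31 (SE 0.19). The EGF receptor ligands Areg and Ereg were called at D1 only by this threshold (1.64 and 1.21, SE 0.32), and a difference between time points was not tested for them. At D180, Tnfrsf1b (1.13) and Csf1 (1.16) were also called. Both had passed the adjusted p with smaller rises at D1 and D30 (Tnfrsf1b 0.31 and 0.54, Csf1 0.83 and 0.94). Trem2 had done so at D1 (0.71). Calls included, 6 of the 28 rose by adjusted p at D1, 7 at D30, and 8 at D180, against 7.58, 2.74, and 7.82% of all genes. Beside the calls, 2 of the 28 substrates passed the adjusted p with a fall at D1 (Mertk and App) and 1 at D30 (Hbegf). At D180, 6 did so (Icam1, Cdh5, Notch1, Ager, Mertk, and Cd163). Of all genes, 8.62, 1.24, and 9% fell by adjusted p at D1, D30, and D180. The median log2FC of the list was 0.16, 0.09, and 0.18.

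Of 22 matrix proteins cut or bound by ADAMTS members, 0 were called at any time point (limma). By adjusted p, Vcan (versican), Fn1 (fibronectin), and Thbs1 rose at D1, with log2FC of 0.96 ± 0.20, 0.91 ± 0.14, and 0.56 ± 0.20. None passed at D30, and at D180, Vcan rose (0.85 ± 0.20) while Vwf (−0.49 ± 0.14) and Ltbp1 (−0.97 ± 0.15) fell. Of all genes, 7.58% rose at D1, 3.98% passed in either direction at D30, and 7.82% rose and 9% fell at D180. The median log2FC of the list was −0.07, −0.09, and −0.12.

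Markers of cell types moved in the same comparisons. At D1, 4 of 7 red blood cell markers were lower by adjusted p (median log2FC −0.58), 3 of 6 alveolar type 1 markers were lower (−0.33), and 2 of 6 smooth muscle markers were higher (0.28). Neutrophil markers had a median log2FC of 0.42 at D1 (1 of 7 higher). Their mean log2 signal at D1 was 7.48 to 7.86 in vehicle rats and 8.10 to 8.58 in DQ-12 rats. At D30, 2 of 7 neutrophil markers were higher (S100a8 and S100a9) and 1 (Fpr1) was lower. Fibroblast markers had a median log2FC of 0.19 at D1 (1 of 7 higher). Their mean log2 signal at D1 was 11.44 to 11.98 in vehicle rats and 11.84 to 12.20 in DQ-12 rats. At D180, 6 of 7 endothelial, 6 of 6 alveolar type 1, 4 of 6 smooth muscle, and 7 of 7 red blood cell markers were lower, while 4 of 7 neutrophil markers were higher and 1 (Fpr1) was lower. Alveolar type 2 markers were higher for 3 of 7 genes at D30 and 4 of 7 at D180, and red blood cell markers were lower for 4 of 7 at D30. Endothelial markers had a mean log2 signal of 13.32 to 13.46 in vehicle rats and 12.57 to 13.00 in DQ-12 rats at D180. Macrophage markers were higher for 3 of 8 genes at D30 and at D180, with 1 (Cd163) lower at D180, and B and plasma cell markers for 3 of 7 at D180. Mesothelial markers were lower for 2 of 5 genes at D30 and at D180, and club cell markers for 2 of 4 at D1. In the T cell and ciliated cell lists, at most 1 gene passed at a time point, and in the list of skeletal and cardiac muscle, 1 of 9 was higher at D1 and 2 were lower at D180. Of 5 cartilage markers tested, none passed the test. Acan was well above background in at most 1 rat of a group, whereas Sox9, which is not particular to cartilage, was well above background in all rats. The part of these shifts in the changes of Adamts4, Adamts17, Adam11, and the other members was not tested.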

How the data were processed

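Lung RNA of 36 rats was hybridized by the authors to single-color Agilent arrays, and the deposited files hold an intensity for each spot from Feature Extraction 12.0.1.1. The deposited table of log2 values could be rebuilt from these intensities by scaling every array to its 75th percentile and then subtracting each probe's median (r = 0.99997), and served as an alternative. Here, background-corrected intensities were log2 transformed, outlier spots (232 to 596 per array) were left out, and spots of a probe were averaged. No spot was saturated (0). Probes above the 95th percentile of 308 negative controls on at least 6 arrays were quantile normalized, and each gene was represented by its brightest probe (23940 genes). A model of 6 group means was fitted in limma 3.58.1 (R 4.3.3) over all genes, with interactions for time points and Benjamini–Hochberg adjustment for each comparison. The methods of the study mention a batch correction without naming the variable, and none entered the main model. The number of rats limits the precision. Exact permutation tests (two-sided) used all 924 splits of 12 rats, which give no p below 0.00216.

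Members called, members past an interaction test, and members with an adjusted p under 0.05 are described, as are Adam10, Adam17, Adamts1, Adamts4, Adamts5, and Adamts13, and up to 4 called genes of each list. Other members are named for closeness to the threshold, detection, or disagreement of probes, after their values were seen. The members and lists were chosen with earlier results of these data known. The fit was tested on simulated data. Alternatives changed the intensity, background correction, normalization, filter, choice of probe, model, block (scan date, slide, replicate number), fold, and set of rats. Disagreement between probes was tested after the data were seen, and only for genes whose used probe had passed an adjusted p. That selected change enters the tested difference, so these p-values lean toward disagreement. All 48 symbols were found in the RefSeq table of GRCr8. The array files place probes on a genome build that could not be settled, so no probe coordinates are given. Columns of other samples numbered 0.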

Additional observations from a re-analysis of the deposited data

Results flagged for a closer look

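Among the 8 genes that passed an adjusted p, 48 groups of 6 rats were searched for a rat far from the others, and 5 were found, where chance flags about 1 in 20 groups. Adam10 was 8.08 in DQ-12 D1 replicate 1, with the nearest rat of the group at 8.64. Adam4 was 5.71 in vehicle D30 replicate 1 (nearest 6.48). Adamts17 was 7.73 in DQ-12 D1 replicate 2 (nearest 9.08). Adamts4 was 5.15 in vehicle D180 replicate 6 (nearest 5.88). Adamtsl2 was 8.97 in DQ-12 D180 replicate 5 (nearest 7.38), the array with the fewest detected probes.

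The response to DQ-12 differed between D180 and D1 for Adam11 by 1.49 on the log2 scale (limma interaction, adjusted p = 0.0393) and for Adamts1 by −0.73 (limma interaction, adjusted p = 0.0447). Both values belong to the probe used for the gene. The other probe of Adam11 went from a log2FC of 1.1 at D1 to 0.34 at D180, and the other probe of Adamts1 from −0.80 to −0.23, each in the opposite direction, and this difference was not tested for them. With scan date as a fixed block, neither value passed the test (limma, adjusted p = 0.0826 for Adam11 and 0.669 for Adamts1).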

How the results depend on the processing

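Members called at D1 (1) became 0 with median spot intensity, 0 with normexp, 0 with scan date or slide as a fixed block, 2 with a stricter filter that asked for detection of a probe in every rat of some group (Adam7 and Adamts4), 2 with every probe taken separately, and 3 at a fold of 1.5. Members past the adjusted p at D1 (5) became 3 with the median over probes, 0 with scan date or slide as a fixed block, and 2 with either as a random block. Members called at D30 (1) became 0 with normexp, with scan date as a fixed or random block, with slide as a fixed block, and with the replicate number as a block. Members past the adjusted p at D30 (1) became 2 with median spot intensity, 75th percentile scaling, the deposited values, or slide as a random block, 3 with normexp or the stricter filter, and 0 with scan date as a fixed or random block. Members called at D180 (0) became 1 with scan date as a fixed or random block (Adam11) and 2 at a fold of 1.5. Members past the adjusted p at D180 (2) became 4 with median spot intensity, 5 with the stricter filter, 1 with the median over probes, with each time point alone, or with slide as a fixed block, 5 and 7 with scan date as a fixed and random block, and 5 with the replicate block. Members whose change differed between D1 and D180 (2) became 1 with median spot intensity, slide as a random block, or the replicate block, and 0 with the median over probes, scan date as a fixed or random block, or slide as a fixed block.

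Leaving out 1 rat gave 1 to 2 members called at D1, 0 to 1 at D30, and 0 to 2 at D180, and 2 to 7, 0 to 4, and 1 to 5 past the adjusted p. Differences between D1 and D180 ranged from 0 to 2, and those between D1 and D30 or between D30 and D180 were 0 each time. Adamts4 and Adam22 at D1 and Adamts17 at D180 kept an adjusted p under 0.05 whichever 1 rat was left out. Adam10 lost this without DQ-12 D1 replicate 2, and Adam4 without vehicle D1 replicate 2 or 6 or DQ-12 D1 replicate 2, 4, or 6. Adamts1 at D1 reversed to −0.17 with the median over probes and to −0.80 with its other probe, and Adamts17 at D180 to 0.02 with its other probe. Apart from the disagreement of probes, the cause of these shifts was not tested. Same-numbered rats deviated together with correlations of −0.13 to 0.22, so the replicate numbers were not taken to pair the rats. Signals close to background limit the 13 genes detected on 1 to 29 arrays, Adam11 among them.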
